A study of Mus musculus with 2 samples.

Results

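The genes described here encode the mitochondrial respiratory chain and its ATP synthase, in alveolar macrophages (AMs) sorted from mouse lung. Members were taken by symbol, as genes beginning Ndufa, Ndufb, Ndufc, Ndufs, Ndufv, Sdh, Uqcr, Cox4 to Cox8, Atp5, mt-Nd, mt-Co, mt-Cytb or mt-Atp. The rule matched 111 of the 32285 genes listed, and 107 of them were seen with 10 or more unique molecular identifiers (UMIs, one per captured transcript) in both libraries. Of these members, 94 were encoded in the nucleus and 13 in mitochondrial DNA. The genes left out were *Ndufa4l2*, with 2 UMIs in the control library and 0 in the tumor library, and *Cox7b2*, *Cox8b* and *Cox8c*, with 0 UMIs in each. Just inside the limit were *Cox6a2*, with 11 and 19 UMIs, and *Cox4i2*, with 32 and 10 UMIs. The symbols also took in 15 nuclear genes that are not subunits of the finished complexes, such as the assembly factors *Ndufaf1* to *Ndufaf8* and *Sdhaf1* to *Sdhaf4*, which were counted but are named as such.

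Single-cell RNA-seq was performed on 2 libraries of the 10x Genomics 3′ chemistry, labelled Control-AM and Tumor-AM. Both came from the lungs of C57BL/6 mice at postnatal week 10. The control mice had received vehicle in the left lung, and the tumor mice carried orthotopic Lewis lung carcinoma (LLC) cells there. By the study's methods, the 2 groups of mice did not come from shared breeding. The number of animals behind each library is not given in the sources used here. Each condition is 1 library, so condition, breeding and library preparation cannot be told apart.

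The respiratory chain moves electrons from NADH and succinate to oxygen. Complex I (NADH dehydrogenase), complex III (cytochrome *bc1*) and complex IV (cytochrome *c* oxidase) pump protons across the inner mitochondrial membrane, complex II (succinate dehydrogenase) feeds in electrons without pumping, and complex V (ATP synthase) uses the proton gradient to make ATP. All complexes but complex II are built from subunits of both genomes: the mitochondrial genome encodes core subunits, and the nucleus encodes the rest along with every assembly factor. AMs live in an oxygen-rich space, take up surfactant lipid and are known to depend on oxidative metabolism.

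Barcodes with at least 500 detected genes and at most 10% of their UMIs from mt- genes were kept. This left 6185 of 8485 barcodes in the control library, with 64850143 UMIs and a median of 10370 UMIs per cell. It left 7666 of 9175 barcodes in the tumor library, with 68801889 UMIs and a median of 8264. The 2 libraries shared 17 of the kept barcodes. All 20 markers listed for AMs were detected in both libraries, at a summed 32926 CPM (UMIs per 1000000 UMIs of the library) in control and 31748 in tumor. The sum does not speak for single markers, since *Chil3* made up much of it, at 11656.5 CPM in control and 10518.9 CPM in tumor. *Marco* was at 585 and 207 CPM, *Siglecf* at 137 and 102 CPM and *Pparg* at 127 and 119 CPM. The other AM markers are not given singly. The 14 markers of monocytes and monocyte-derived macrophages summed to 118 and 253 CPM, and the 8 fibroblast markers to 3.33 and 36.5 CPM, with 1 of the 8 at 0 in control. Clusters led by markers of other cell types held 24 control and 107 tumor cells. CPM values pool the UMIs of all cells of a group and carry 95% Poisson intervals (exact), and log2 ratios of tumor over control carry exact conditional binomial intervals, all of them for counting error only. Cells are not replicates, and with 1 library per condition no test was possible and no p-value is given. Fewer transcripts per cell and a larger amount of other RNA per cell cannot be told apart in these values.

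The summed respiratory chain transcripts were slightly lower in tumor-exposed AMs, in both genomes. The 94 nuclear-encoded members summed to 22437 CPM (22401 to 22474) in control and 20906 CPM (20872 to 20940) in tumor, a log2 ratio of −0.10 (−0.11 to −0.10). The 13 mt-encoded members summed to 28645 CPM (28604 to 28686) in control and 26566 CPM (26528 to 26605) in tumor, a log2 ratio of −0.11. The number of mt-encoded UMIs per nuclear-encoded UMI was 1.28 in control and 1.27 in tumor. For comparison, the median log2 ratio of the 12936 genes that passed the same minimum was −0.07, and centred on it the sums were at −0.034 and −0.041. With cells of other types left out, the sums were at −0.10 and −0.11. The sums of both genomes lay close together here, but the median member was at −0.12 in the nucleus and −0.25 in mitochondrial DNA, where *mt-Co1*, *mt-Co2* and *mt-Co3* made up most of the UMIs. The sums also parted under other settings, to −0.10 and −0.17 with CPM averaged over cells and to −0.11 and −0.072 with at most 5% mt- UMIs.

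Most single members differed little between the libraries. Of the 107 members, 81 had a ratio below 0 and 26 above, with a median of −0.13. Over all genes that passed the same minimum, 7570 of 12936 had a ratio below 0. Calls were made at a log2 ratio of at least 0.32 in size, with no test. In the lower direction 10 members were called, or 9.35%, against 23.8% of all genes. That count was 6 when ratios were centred on the median of all genes and 17 with CPM averaged over cells. In the higher direction 1 member was called, *Cox6a2*, at its few UMIs, against 14.3% of all genes. The share of members called by the first of these counts was below the background in both directions. Here and below, all genes reach down to 10 UMIs in each group compared, where counting error alone can pass the limit. Of the 107 members, 105 had at least 100 UMIs in each library, and the shares were not matched for level. The 10 lower members were 7 nuclear genes (*Cox4i2*, *Cox6b2*, *Ndufa4*, *Ndufv1*, *Ndufaf1*, *Ndufs7* and *Uqcrc2*) and 3 mitochondrial genes (*mt-Nd4l*, *mt-Nd4* and *mt-Cytb*). Those with the lowest ratios belonged to complex IV or to the mitochondrial genome, as the plot of ratios by complex shows.

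**Figure D1:**
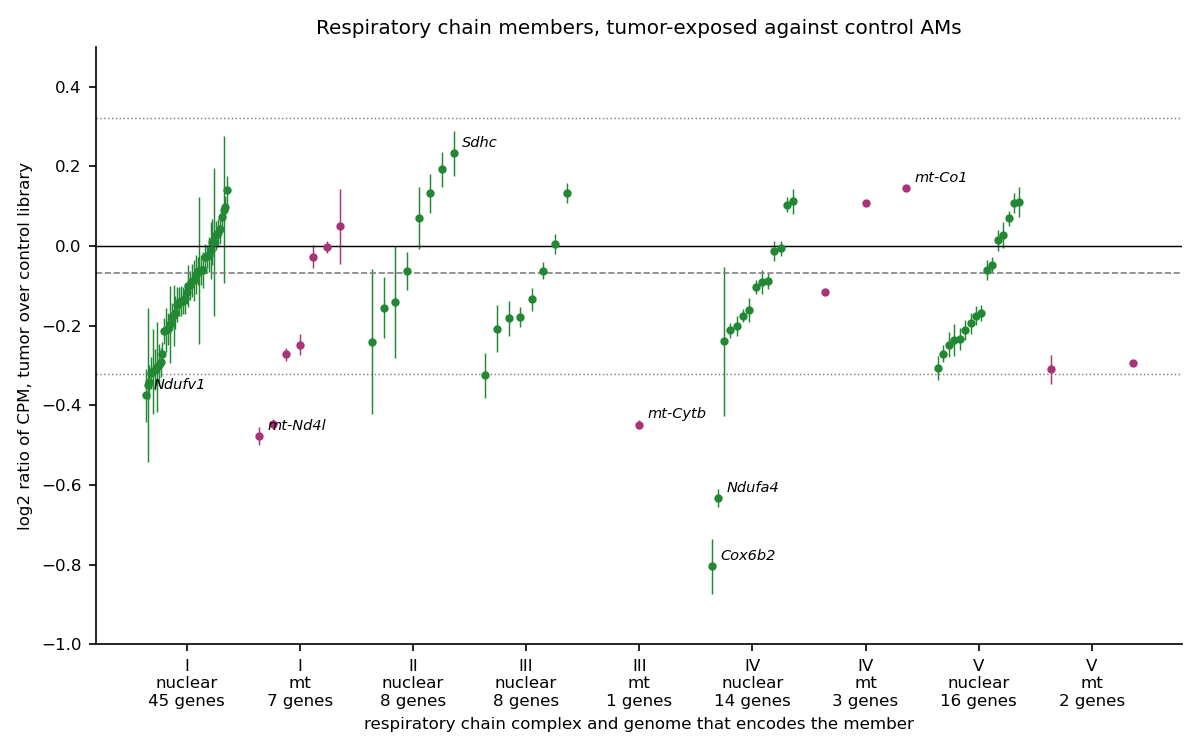
Log2 ratio of CPM, tumor over control library, for the 104 members with at least 500 UMIs in the libraries together, by complex and encoding genome (nuclear, green; mt, purple); bars are 95% counting intervals. The solid line is 0, the dashed line the median of all genes at −0.07, and the dotted lines the limits of a call at 0.32 and −0.32. *Cox6b2* and *Ndufa4* lie below every other nuclear-encoded member drawn, and *Sdhc* lies highest.

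Complex I showed a small decrease spread over many nuclear genes. Its 45 nuclear-encoded members, *Ndufa4* not among them, summed to 6551 CPM in control and 6125 CPM in tumor, with a log2 ratio of −0.10. Of the 45, 36 were below 0, against 7570 of 12936 over all genes. *Ndufv1*, which encodes the subunit that binds NADH and flavin, was at 62.4 CPM (60.5 to 64.3) in control and 48.1 CPM (46.5 to 49.8) in tumor, a log2 ratio of −0.38 (−0.44 to −0.31). *Ndufs7*, a subunit that carries an iron-sulfur cluster next to the quinone site, was at 148 CPM in control and 117 CPM in tumor (−0.34), and it was lower in 14 of 14 cell clusters that had at least 50 cells in each library. The accessory subunits *Ndufa11* and *Ndufa12* had ratios of −0.32 and −0.31, just short of a call, and the assembly factors *Ndufaf1* and *Ndufaf2* ratios of −0.35 and −0.31. At the other end, the accessory subunit *Ndufc1* was at 178 CPM in control and 196 CPM in tumor (0.14), and *Ndufa2* at 321 and 344 CPM (0.10). The ratio of *Ndufc1* ranged from 0.027 to 0.21 over the alternative settings, and it was higher in 8 and lower in 6 of 14 clusters. The core subunits differed among themselves, since *Ndufs1*, which like *Ndufs7* belongs to the core, had a ratio of −0.01.

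Complex II was the exception among the nuclear-encoded sums, with 3 of its 4 subunits higher in the tumor library. The flavoprotein subunit *Sdha* was at 121 CPM (118 to 123) in control and 138 CPM (135 to 141) in tumor, a log2 ratio of 0.19 (0.15 to 0.24). The membrane anchor *Sdhc* was at 72.0 CPM (69.9 to 74.1) in control and 84.6 CPM (82.4 to 86.8) in tumor, a log2 ratio of 0.23 (0.18 to 0.29). The other anchor, *Sdhd*, was at 98.6 and 108 CPM (0.13). The iron-sulfur subunit *Sdhb* was not higher, at 108 CPM in control and 103 CPM in tumor (−0.06). *Sdha* was higher in 11, *Sdhc* in 12 and *Sdhd* in 11 of 14 clusters, while *Sdhb* was lower in 13 of 14. The sum of *Sdha* to *Sdhd* was 399 CPM in control and 434 CPM in tumor, and its ratio of 0.12 (0.10 to 0.14) was short of a call. The assembly factors *Sdhaf1*, *Sdhaf2*, *Sdhaf3* and *Sdhaf4* had ratios of −0.14, 0.07, −0.24 and −0.15.

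Promoter sequences of RefSeq (build GRCm38.p6, 250 bases before to 50 after a start site) were listed for 78 of the 94 nuclear members. They were searched on both strands for the letters of factors known to act on respiratory genes: GCNTGCG for NRF1, CCGGAAG for ETS factors and AAGATGG for YY1. An ETS match overlapped a YY1 match in 0 of the 83 member windows and in 5 of all 32851 windows (0.0152%), so the overlap was rare everywhere. The NRF1 letters were found in 48.2% of the 83 member windows and in 16.4% of all 32851 windows, the ETS letters in 25.3% and 8.86%, and the YY1 letters in 14.5% and 6.34%. The form of the NRF1 and YY1 motifs was settled after results were seen: NRF1 was searched in 3 forms and YY1 in 2. A first NRF1 form of 10 letters was in 26.5% of member windows and 4.6% of all, with 3 matches in the *Sdha* window. A second, GCATGCG, was in 15.7% and 3.58% and had 0 matches in the *Sdha* window, after which the form given here was taken. The YY1 form of 10 letters was in 7.23% and 0.852%. The matches in *Sdha* therefore depend on the form and support nothing. The median log2 ratio was −0.13 in the 55 members with any of the motifs and −0.18 in the 23 without. With and without each motif, the medians were −0.14 and −0.14 for NRF1, −0.061 and −0.17 for ETS, and −0.044 and −0.15 for YY1. These differences were not tested. No window was listed for *Sdhc*, and that of *Ndufc1*, with a ratio of 0.14 and so above *Sdhd*, is not printed. Windows of *Sdha* and *Sdhd*, higher in tumor, and of *Ndufa4* and *Cox6b2*, the lowest nuclear members after *Cox4i2*, are printed with matches in capitals. They lie on the minus strand at chr13:74350191-74350490 (*Sdha*), chr9:50603800-50604099 (*Sdhd*), chr6:11907401-11907700 (*Ndufa4*) and chr7:4753045-4753344 (*Cox6b2*).
Sdha: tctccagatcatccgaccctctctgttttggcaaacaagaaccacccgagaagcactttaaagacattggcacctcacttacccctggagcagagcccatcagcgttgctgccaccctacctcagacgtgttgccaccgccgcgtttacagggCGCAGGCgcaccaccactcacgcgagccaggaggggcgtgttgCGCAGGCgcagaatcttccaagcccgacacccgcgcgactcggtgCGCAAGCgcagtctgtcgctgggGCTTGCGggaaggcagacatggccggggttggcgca
Sdhd: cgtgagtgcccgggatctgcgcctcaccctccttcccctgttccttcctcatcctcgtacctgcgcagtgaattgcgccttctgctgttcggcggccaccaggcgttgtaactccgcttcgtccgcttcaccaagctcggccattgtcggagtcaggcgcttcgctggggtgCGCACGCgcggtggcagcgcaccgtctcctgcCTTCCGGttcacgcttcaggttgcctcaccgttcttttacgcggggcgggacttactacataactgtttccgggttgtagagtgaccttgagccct
Ndufa4: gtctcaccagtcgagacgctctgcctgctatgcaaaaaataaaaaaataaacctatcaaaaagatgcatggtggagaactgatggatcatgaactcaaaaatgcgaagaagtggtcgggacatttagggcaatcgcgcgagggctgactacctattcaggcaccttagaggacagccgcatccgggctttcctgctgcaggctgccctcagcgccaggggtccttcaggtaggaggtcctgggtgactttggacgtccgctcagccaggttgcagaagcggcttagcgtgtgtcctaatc
Cox6b2: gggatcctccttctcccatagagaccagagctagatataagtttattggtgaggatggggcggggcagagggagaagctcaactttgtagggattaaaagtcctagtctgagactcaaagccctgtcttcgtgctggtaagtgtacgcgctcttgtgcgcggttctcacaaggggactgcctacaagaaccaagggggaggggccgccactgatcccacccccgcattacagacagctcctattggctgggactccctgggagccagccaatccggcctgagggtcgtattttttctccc
In the form given, the *Sdha* window held 4 NRF1 matches, the *Sdhd* window 1 NRF1 and 1 ETS match, and the *Ndufa4* and *Cox6b2* windows 0 in any form searched. A match is only a description of the letters, and its absence says nothing of the factor.

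In complex III, the nuclear members summed to 2295 CPM in control and 2193 CPM in tumor (−0.07). The core protein *Uqcrc2* was at 83.9 CPM (81.7 to 86.1) in control and 67.0 CPM (65.1 to 68.9) in tumor, a log2 ratio of −0.32 (−0.38 to −0.27). Its partner *Uqcrc1* had a ratio of −0.21 and the Rieske protein *Uqcrfs1* of −0.18. *Uqcrq*, a small subunit, was higher, at 370 and 406 CPM (0.13). The single mitochondrial gene of this complex, *mt-Cytb*, encodes cytochrome *b*, and it stood further down than any nuclear partner, at 2383 CPM in control and 1746 CPM in tumor (−0.45, interval −0.46 to −0.44).

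Complex IV held the lowest nuclear-encoded members. Its 16 nuclear-encoded members summed to 6737 CPM in control and 6144 CPM in tumor (−0.13), and *Ndufa4* carried part of this, since the ratio without it was −0.09. Several subunits of complex IV exist as isoforms, with one form in most tissues and another typical of muscle, lung or testis. The general forms were the abundant ones here: *Cox4i1* was at 962 CPM in control and 852 in tumor (−0.17), *Cox6a1* at 244 and 264 (0.11), *Cox6b1* at 651 and 613 (−0.09), *Cox7a2* at 416 and 412 (−0.01) and *Cox8a* at 791 and 737 (−0.10). The restricted forms were sparse. *Cox7a1*, the muscle form, was at 7.62 and 6.45 CPM (−0.24). *Cox6a2*, likewise of muscle, was at 0.170 and 0.276 CPM, with an interval of the log2 ratio from −0.44 to 1.92 that includes 0. *Cox4i2*, known from lung, was at 0.493 and 0.145 CPM (−1.76, interval −2.95 to −0.70), but the ratio was −0.38 with CPM averaged over cells and −0.95 with the tumor-enriched clusters left out. *Cox7a2l*, a factor of supercomplex assembly, was at 259 and 243 CPM (−0.09). It was lower in 14 of 14 clusters, with a median ratio of −0.22 among them. Over the alternative settings its ratio ranged from −0.21 to −0.022.

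*Cox6b2*, the isoform of *Cox6b1* best known from testis, was the exception among the restricted forms, since it was well detected and lower in tumor. It was at 67.9 CPM (65.9 to 69.9) in control and 38.9 CPM (37.4 to 40.4) in tumor, a log2 ratio of −0.80 (−0.87 to −0.73). It was lower in 14 of 14 clusters, with the interval below 0 in 11 of them. The smallest difference was in the cluster led by *Ear1* and *Ear2*, at 71.1 CPM in control and 70.5 CPM in tumor. The ratio was −0.56 with the tumor-enriched clusters left out and −0.61 as the mean of the ratios within clusters.

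*Ndufa4* showed the largest decrease among abundant members. The protein, first assigned to complex I, is a subunit of complex IV. Its gene lies on the minus strand at chr6:11900292-11907497. It was at 610 CPM (604 to 616) in control and 393 CPM (389 to 398) in tumor, a log2 ratio of −0.63 (−0.65 to −0.61). It was lower in 13 of 14 clusters, each with an interval below 0, with ratios from −0.80 to 0.14. The exception was the tumor-enriched cluster led by *F13a1* and *Vegfa*, where it was at 311 CPM (277 to 349) in the 95 control cells and 343 CPM (336 to 350) in the 2781 tumor cells. In control, this was the lowest *Ndufa4* level of any AM cluster, and the few control cells assigned to it were no higher than the tumor cells. The ratio was −0.52 with the tumor-enriched clusters left out and −0.45 as the mean within clusters, so *Ndufa4* was lower among the remaining cells as well.

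*AA467197* is not a member, but it was set beside *Ndufa4* after the values had been seen. It is the mouse gene for NMES1, a paralog of NDUFA4 that is known to take the place of NDUFA4 in complex IV in inflamed macrophages, and its transcript also carries miR-147, which is known to act on *Ndufa4* mRNA. *AA467197* (chr2:122636986-122641191, plus strand) was at 13 CPM (12.2 to 13.9) in control and 52.6 CPM (50.9 to 54.3) in tumor, a log2 ratio of 2.01. It was higher in 13 of 14 clusters and lower in the cluster led by *F13a1*, at 63.1 and 47.5 CPM, the same cluster that was the exception for *Ndufa4*. Among AM clusters the highest level was in the tumor cells of the one led by *Cxcl9* and MHC class II genes, where *AA467197* is itself among the leading genes, at 215 CPM against 25.1 CPM in control, and there *Ndufa4* was at 392 CPM against 620 CPM in control. In the cluster led by *F13a1* the interval of the *Ndufa4* ratio included 0 (−0.03 to 0.31). Other levels did not follow this pattern. The 17 control cells of the cluster led by *Ifit* genes had *AA467197* at 79.2 CPM and *Ndufa4* at 613 CPM, against 610 CPM over all control cells. In tumor, *Ndufa4* in the *Cxcl9* cluster, at 392 CPM, was close to the 393 CPM of the library. It was lower in the *F13a1* cluster, at 343 CPM, where *AA467197* was below its library level. A link between the levels was not tested. The levels are shown in the plot of *Ndufa4*, *AA467197* and *Cox6b2* by cluster.

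**Figure D2:**
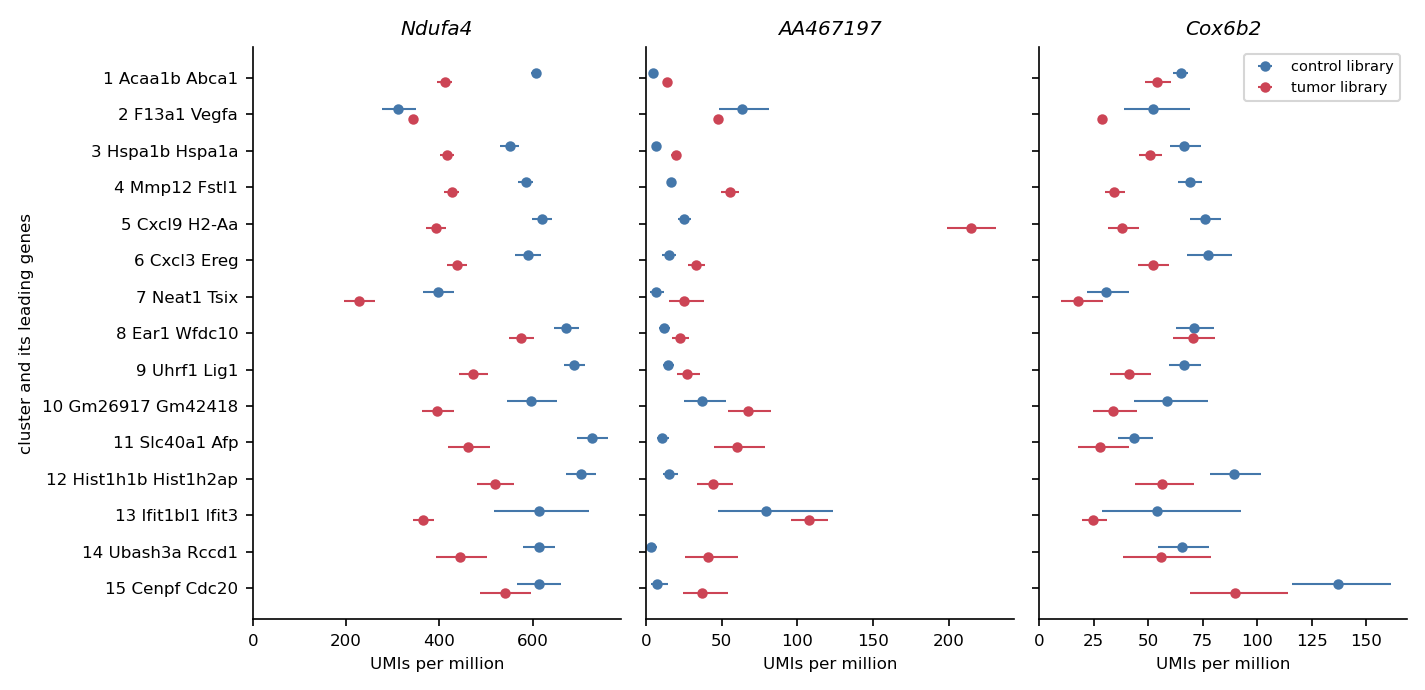
CPM of *Ndufa4*, *AA467197* and *Cox6b2* in each of 15 AM clusters (rows, with 2 leading genes) in the control (blue) and tumor (red) libraries; bars are 95% Poisson intervals. *Ndufa4* lies lower in tumor in every row but that of *F13a1*, where it is at 311 CPM in control and 343 CPM in tumor, and *AA467197* reaches 215 CPM in the tumor cells of the *Cxcl9* row.

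*Ndufa4* was also compared within each library between cells with and without an *AA467197* UMI. In control, *Ndufa4* was at 545 CPM in the 457 cells with such a UMI and 617 CPM in the 5695 without, a log2 ratio of −0.18 (−0.23 to −0.13). In tumor, it was at 353 CPM in 1555 cells with and 412 CPM in 5982 cells without (−0.22, interval −0.26 to −0.18). The other nuclear members were higher in the cells with a UMI, by 0.05 in control and 0.07 in tumor, and *Ndufa4* ranked 3 from the bottom among 99 and 98 members compared. Cells with a UMI were deeper, with a median of 12652 against 10223 UMIs in control and 10669 against 7748 in tumor. After thinning of every cell to 3000 UMIs, *Ndufa4* was at −0.31 in control and −0.19 in tumor. There it ranked 9 and 11 from the bottom of 104, among members of fewer UMIs. The other nuclear members were then at 0.023 (−0.0069 to 0.053) in control and 0.052 (0.037 to 0.067) in tumor. Within single clusters with at least 15 cells that held the UMI, *Ndufa4* was lower in 9 of 11 control and 11 of 14 tumor clusters, with an interval below 0 in 4 and 5 and above 0 in 0. No cell type was at hand that is known to lack *AA467197*, so the part of free RNA in these divisions was not tested.

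The sequences were compared for stretches that could pair, since the hairpin of miR-147 lies in the last of 5 exons of *AA467197*, in the 3′ UTR, at chr2:122640803-122640881. The longest stretch of the 79-base hairpin that is complementary to the *Ndufa4* 3′ UTR of 243 bases was 8 bases long. It is shown in capitals, with the *Ndufa4* site at chr6:11900467-11900492 on the minus strand and the hairpin part at chr2:122640842-122640867 on the plus strand (GRCm38).
Ndufa4 site: cagaagccaTCCGCACAattttccac
miR-147 hairpin: ugaugccagUGUGCGGAaaugcuucu
The 8 letters TCCGCACA were found in the 3′ UTR of 108 of 21028 genes (0.514%) and in 1 of the 93 members with an annotated 3′ UTR, *Ndufa4*. A stretch of 8 bases complementary to any part of the hairpin is a wider search, and it is common: 63.1% of genes and 30 of the 93 members held one. *Ndufa4* held a second, TTTCCACT, that pairs with another part of the hairpin. The hairpin part printed lies past mature miR-147-5p, at chr2:122640814-122640837. The mature sequence of the other arm was not at hand, so the stretch was not placed in it. Whether either site acts was not tested.

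In complex V, 12 of 17 nuclear members had a ratio below 0 and 5 above, where 7570 of 12936 of all genes were below 0. The 17 nuclear members summed to 6353 CPM in control and 5913 CPM in tumor (−0.10), and 0 of them were called. *Atp5d*, the delta subunit, was lowest, at 300 CPM (295 to 304) in control and 242 CPM (239 to 246) in tumor (−0.31), and lower in 14 of 14 clusters. The catalytic beta subunit *Atp5b* had a ratio of −0.23, but the alpha subunit *Atp5a1*, its partner, was higher, at 367 and 396 CPM (0.11). The membrane ring is encoded by 3 genes that give the same mature protein. *Atp5g1* was at 395 CPM in control and 341 in tumor (−0.21), *Atp5g2* at 569 and 472 (−0.27) and *Atp5g3* at 417 and 369 (−0.17), so all 3 genes were lower, *Atp5g1* and *Atp5g2* in 14 and *Atp5g3* in 11 of 14 clusters. *Atp5k*, a small membrane subunit, was at 172 and 185 CPM (0.11).

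The mt-encoded members differed among themselves more than their common sum would show. Of the 13 genes, 8 had an interval of the log2 ratio below 0, 2 above 0 and 3 across 0. Among the 94 nuclear members, 62 had it below 0, 13 above 0 and 19 across 0. At many UMIs such an interval excludes 0 for small differences, and the same count over all genes was not made. Of the 3 complex IV genes 2 were higher: *mt-Co1* was at 5896 CPM (5877 to 5915) in control and 6523 CPM (6504 to 6542) in tumor (0.15), and *mt-Co3* at 4014 and 4326 CPM (0.11), while *mt-Co2* was at 5234 and 4830 CPM (−0.12). These 3 genes made up 52.9% of mt-encoded member UMIs in control and 59.0% in tumor. Complex I genes were spread widely. *mt-Nd1* was at 1104 and 1103 CPM, a log2 ratio that rounds to 0.00, *mt-Nd3* at 292 and 287 CPM (−0.03), and *mt-Nd6* at 27.0 and 27.9 CPM (0.05, interval −0.04 to 0.14). *mt-Nd5* was at 359 and 303 CPM (−0.25) and *mt-Nd2* at 1126 and 932 CPM (−0.27). *mt-Nd4* was at 1918 CPM (1908 to 1929) in control and 1407 CPM (1398 to 1416) in tumor (−0.45), and *mt-Nd4l* at 538 and 386 CPM (−0.48). The complex V genes *mt-Atp6*, at 5556 and 4536 CPM, and *mt-Atp8*, at 198 and 160 CPM, had ratios of −0.29 and −0.31.

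For genes at either end of this range, the sign held in most clusters. *mt-Nd4l*, *mt-Nd4* and *mt-Cytb* were each lower in 13 of 14 clusters, and *mt-Co1* and *mt-Co3* each higher in 12. *mt-Nd1*, *mt-Nd3* and *mt-Nd6* each changed sign under at least 1 of 14 alternative settings, and the other 10 mt-encoded genes kept theirs. All of these genes are read from a few long precursor transcripts, and some neighbours share bases. How reads across such a join were divided between *mt-Atp8* and *mt-Atp6*, or between *mt-Nd4l* and *mt-Nd4*, was not tested. The 43 bases shared by *mt-Atp8* and *mt-Atp6* (chrM:7927-7969, plus strand) and the join of *mt-Nd4l* and *mt-Nd4* (chrM:10155-10185, with the 7 shared bases in capitals) are printed to show where these neighbours meet.
mt-Atp8 and mt-Atp6: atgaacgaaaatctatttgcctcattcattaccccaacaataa
mt-Nd4l and mt-Nd4: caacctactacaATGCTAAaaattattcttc

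**Figure D3:**
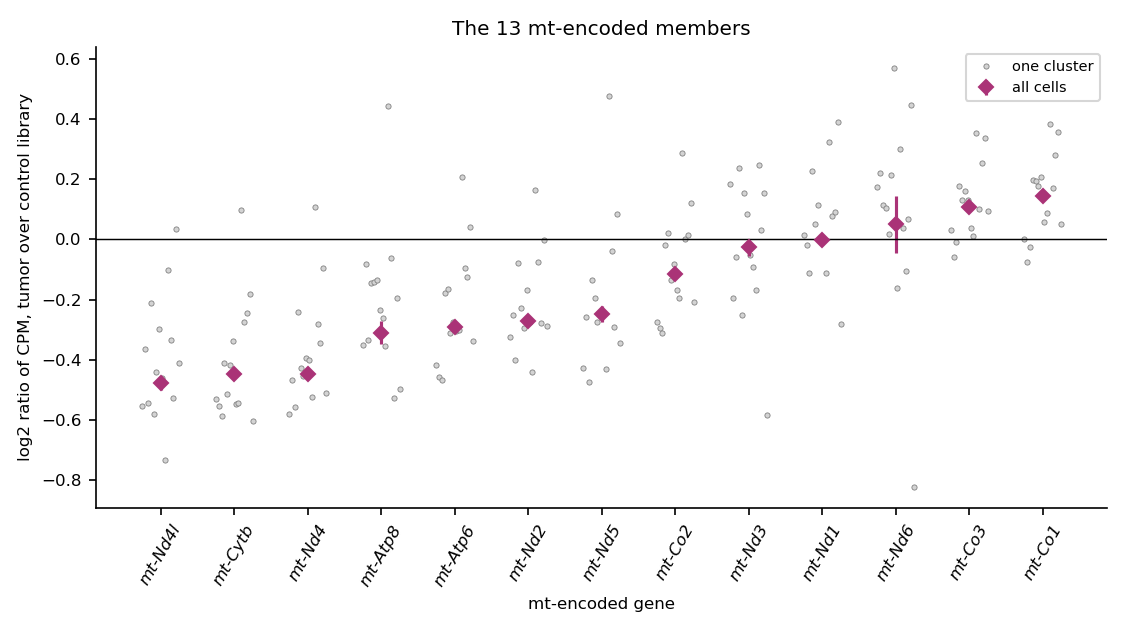
Log2 ratio of CPM, tumor over control library, for the 13 mt-encoded members, ordered by ratio; diamonds are all cells with 95% counting intervals, grey points each of 14 clusters with at least 50 cells in each library. The values run from −0.48 for *mt-Nd4l* to 0.15 for *mt-Co1*, and most grey points lie on the same side of 0 as the diamond for genes at either end.

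The cells were divided into clusters without use of any member or other mt- gene, which gave 15 AM clusters. The nuclear-encoded sum was lower in tumor in 13 of the 14 clusters that could be compared, with a median log2 ratio of −0.09 and a lowest of −0.24. The exception was the cluster led by *Ear1*, *Ear2* and *Marco*, at 25122 CPM in control and 25194 CPM in tumor (0.00). The mt-encoded sum was lower in tumor in 11 of 14 clusters, with a median of −0.08. It was higher in 3: the cluster led by *Ubash3a*, at 32316 and 35898 CPM (0.15), a cluster of shallow cells led by *Gm26917* and *Gm42418*, at 23226 and 28019 CPM (0.27), and the histone-led cluster of dividing cells, at 26419 and 26846 CPM (0.02).

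**Figure D4:**
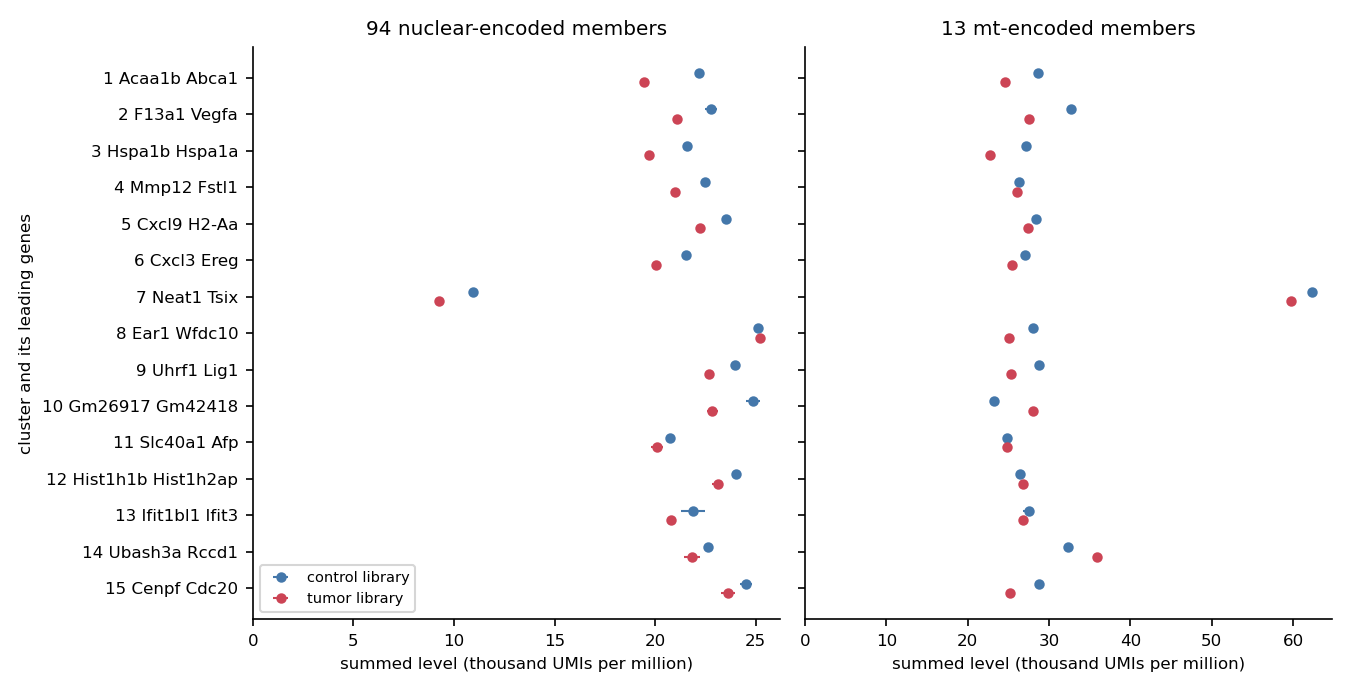
Summed level of the 94 nuclear-encoded (left) and 13 mt-encoded (right) members, in 1000 CPM, in each of 15 AM clusters in the control (blue) and tumor (red) libraries; bars are 95% Poisson intervals. The cluster led by *Neat1* stands apart in both libraries, with nuclear sums of 10922 and 9276 CPM and mt-encoded sums of 62357 and 59745 CPM.

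Across clusters the nuclear-encoded sum varied within narrow bounds, apart from one cluster. Without it, the range was 20735 to 25122 CPM in control and 19440 to 25194 CPM in tumor. The *Ear1* and *Ear2* cluster, whose leading genes are typical of resident AMs, was highest in both libraries. Against the other AM clusters of the same library its log2 ratio was 0.17 in control, with 15 of 92 nuclear members called higher (8.53% of all genes), and 0.28 in tumor, with 41 of 92 called higher (15.7% of all genes). For its mt-encoded sum the ratios were −0.03 and −0.09, with ranges of −0.30 to 0.12 and −0.39 to 0.0053 over the 16 alternative settings, so the sign was not stable. The cluster led by *Slc40a1* and *Hmox1*, genes of iron and heme handling, was at 20735 CPM in control and 20086 CPM in tumor, log2 ratios of −0.12 and −0.06. The cluster led by heat-shock genes was at 21603 and 19708 CPM, and its mt-encoded sum in tumor, 22684 CPM, was the lowest of any AM cluster there (−0.26). The cluster led by *Cxcl3*, *Cxcl1* and *Cxcl2* had ratios of −0.06 and −0.07 for the nuclear sum, and the MHC class II cluster of 0.08 and 0.09. These ratios depended on how the clusters were drawn. That of the nuclear sum in the *Ear1* and *Ear2* cluster ranged from 0.047 to 0.33 in control and from 0.021 to 0.38 in tumor over the same settings. Under 3 of them (at most 20% mt- UMIs, no limit, and resolution 0.5) the cluster chosen for *Ear1* and *Ear2* was the one chosen for heat-shock genes, and the nuclear ratio was at most 0.058 in control and 0.034 in tumor. The nuclear ratio of the heat-shock cluster turned under the same 3, and that of the MHC class II cluster under 1.

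The cluster that stood apart was led by the nuclear RNAs *Neat1*, *Tsix* and *Malat1*. It held 403 control and 296 tumor cells with medians of 2891 and 2174 UMIs, against 10370 and 8264 over all cells. Its nuclear-encoded sum was 10922 CPM in control and 9276 CPM in tumor, log2 ratios of −1.06 and −1.18 against the other AM clusters. Its mt-encoded sum went the other way, at 62357 and 59745 CPM (1.16 and 1.19). In it, 78 of 85 nuclear members were called lower in control and 79 of 82 in tumor, against 25.3% and 24.4% of all genes. All 13 mt-encoded members were called higher in both libraries, against 45.3% and 43.7% of all genes. *Malat1*, a non-coding RNA kept in the nucleus, was at 34749 and 38360 CPM there, against 9993 and 8781 CPM over all cells. The part of depth and RNA quality in these values was not tested.

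The nuclear-encoded level was also lower in cells with a larger mt- share, up to a share of 20%. Per 1000000 UMIs of genes other than mt- genes, the nuclear-encoded members were at 24067 in control and 22068 in tumor in cells with up to 2% mt- UMIs. In cells with 5 to 9% they were at 17150 and 16105. Just inside the limit, from 9 to 10%, they were at 12105 and 10519, and just outside it, from 10 to 11%, at 9519 and 8818. From 11 to 20% they were lower again, at 8882 (8701 to 9065) and 7671 (7468 to 7879), and from 20 to 50% they were at 10340 (10017 to 10669) and 7952 (7647 to 8265). From the lowest band to that of 10 to 11%, *Malat1* went from 9079 to 51420 in control and from 8059 to 45367 in tumor, on the same scale. The nuclear-encoded level was lower in tumor in 7 of 7 bands. Barcodes with at least 500 genes and over 10% mt- UMIs numbered 977 in control and 764 in tumor, 13.6% and 9.06%, so the limit removed unequal shares. Without it, the log2 ratio of the nuclear-encoded sum was −0.09 and that of the mt-encoded sum −0.15. Across the cells kept, Spearman's correlation of the nuclear-encoded share of non-mt UMIs with the mt- share was −0.33 in control and −0.21 in tumor, a description of cells that share a library.

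**Figure D5:**
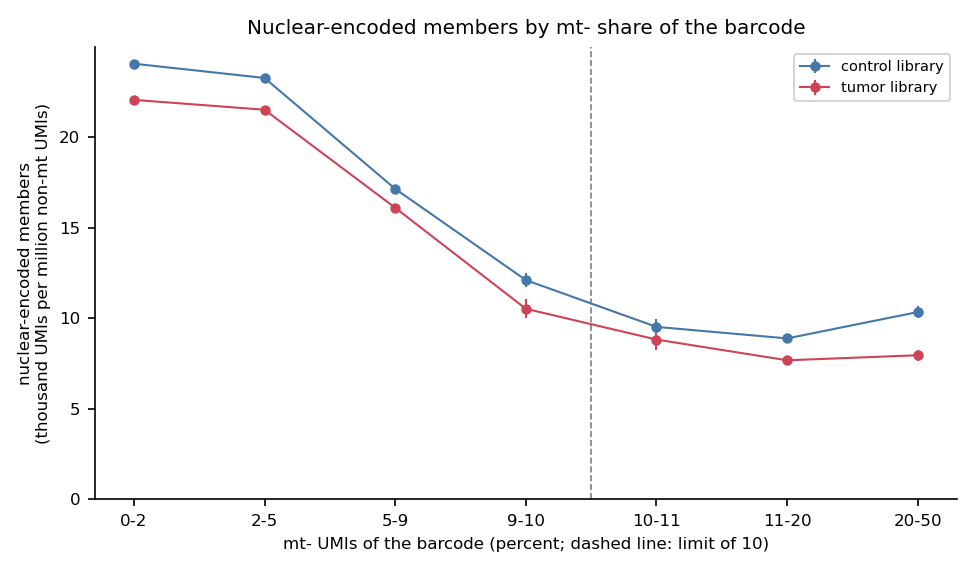
Level of the 94 nuclear-encoded members (in 1000 UMIs per 1000000 UMIs of genes other than mt- genes) in barcodes grouped by the percentage of their UMIs from mt- genes, in the control (blue) and tumor (red) libraries; bars are 95% Poisson intervals and the dashed line is the limit of 10%. The level is 24067 and 22068 in the lowest band and 9519 and 8818 in the band just past the limit.

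Clusters led by cell cycle genes had slightly higher nuclear-encoded sums, and the median of all genes was higher in them too. The clusters led by *Uhrf1* and *Mcm5*, by histone genes with *Top2a*, and by *Cenpf* and *Cdc20* together were at 24033 CPM in 649 control cells against 22194 CPM in other AM clusters (0.11), and at 23001 CPM in 330 tumor cells against 20802 CPM (0.15). The median ratio of all genes in these contrasts was 0.075 and 0.078. For the histone-led cluster alone the ratios were 0.10 in control and 0.15 in tumor, and 0.015 and 0.060 when centred on the median of all genes. Over all 3 clusters, the mt-encoded sum was slightly lower, with log2 ratios of −0.04 and −0.05. In the histone-led cluster, 15 of 91 nuclear members were called higher in control and 18 of 87 in tumor, below the 32.9% and 33.9% of all genes. The ATP synthase stalk subunit *Atp5o* was highest in both, at 255 against 160 CPM in control (0.67) and 224 against 137 CPM in tumor (0.71). *Atp5g2* (0.55 and 0.58) and *Cox5b* (0.48 and 0.56) were among the 5 highest in both libraries, while the complex I assembly factor *Ndufaf4* was lowest (−1.03 and −1.48, on 37 and 11 UMIs). *Ndufv1*, of complex I, ranked next to *Atp5o* in control (0.59) but was at 0.32 in tumor.

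The tumor-enriched clusters hardly differed from the other tumor cells in their sums. These clusters, led by *F13a1*, *Vegfa* and *S100a6* and by interferon-induced *Ifit* genes, had at least 90% of their cells from the tumor library after weighting for library size. Within the tumor library, their 3022 cells had a nuclear-encoded sum of 21064 CPM against 20825 CPM in the 4515 other AMs (0.02), and an mt-encoded sum of 27462 against 26048 CPM (0.08). Centred on the median of all genes, the ratios were 0.091 and 0.15, and the second turned to −0.16 with no limit on mt- UMIs. Of 92 nuclear members, 0 were called higher, against 12% of all genes, and 5 were called lower, against 20.5%. *Cox6b2* was lowest, at 28.6 against 47.9 CPM (−0.75), followed by the assembly factor *Ndufaf3* (−0.39), by *Ndufa4*, at 345 against 436 CPM (−0.34), and by *Ndufv1* (−0.32). *Ndufb1-ps*, listed in the annotation as a non-coding RNA (0.28), *Ndufc1* (0.27), *Atp5e* (0.25) and *Cox8a* (0.21) were highest. *Cox6b2*, *Ndufa4* and *Ndufv1* were therefore low both in the tumor library as a whole and in the clusters found mainly in it, which share cells.

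In 7 lists of genes that serve the respiratory chain or its mitochondria, 5 of 153 genes were called higher (3.27%) and 19 lower (12.4%), both below the 14.3% and 23.8% of all genes. These shares too were not matched for level. By the same limits, 2 of 40 assembly factors were higher and 5 lower. The higher ones were the copper chaperone *Cox17*, at 191 CPM in control and 266 CPM in tumor (0.48), and *Coa5* (0.42), both of complex IV assembly and both higher in 14 of 14 clusters. The insertase *Cox18* (−0.59) and the chaperone *Bcs1l* (−0.57), which acts on complex III, were lowest. Of 20 genes of electron carriers and partners, 4 were lower, among them the ADP/ATP carriers *Slc25a4* (−0.43) and *Slc25a5* (−0.34). Of 19 tricarboxylic acid cycle genes, 1 was lower, the fumarase *Fh1* (−0.41). Of 24 genes that maintain mitochondrial DNA and its transcripts, 3 were lower, among them the transcription factor *Tfb2m* (−0.41). Of 29 genes of protein import and the inner membrane, 3 were lower, such as *Timm9* (−0.52), and 1 higher, *Pink1* (0.35). Among 11 nuclear regulators, *Gabpb1* (−0.34), *Gabpb2* (−0.42) and *Pprc1* (−0.35) were lower and *Ppard* (0.45) higher. Of 10 mitochondrial antioxidant genes, 1 was higher, the mainly cytosolic superoxide dismutase *Sod1* (0.34), and 0 lower. Of 15 glycolysis genes, 8 were higher and 0 lower, with a list median of 0.38 against −0.07 over all genes, and the medians of the other lists lay between −0.19 and 0.02. The hexokinase *Hk2* was at 41.3 CPM in control and 107 CPM in tumor (1.38), the phosphofructokinase *Pfkl* at 19.2 and 35.4 CPM (0.88), and the lactate exporter *Slc16a3* at 33.9 and 50.1 CPM (0.56). Not every gene of the list rose. *Gapdh*, the most abundant, was at 1107 CPM in control and 988 CPM in tumor (−0.16). *Pfkp*, a more abundant phosphofructokinase than *Pfkl*, was at 114 and 105 CPM (−0.13), and both were short of a call.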

How the data were processed

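The authors deposited raw UMI counts per gene and barcode from the 10x Genomics 3′ kit, not normalized. The submitters' processing notes name bcl2fastq 2.20, Cell Ranger 4.0.0 and build mm10, while the study's methods name another Cell Ranger version. Cell Ranger counts reads with a single best place, so reads that also match nuclear copies of mitochondrial genes may be lost. Symbols for 32158 of 32285 identifiers came from GENCODE vM21.

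The members, gene lists, rules and alternatives were chosen with earlier results of these data known. Named genes were all mt-encoded members, the 10 highest and 10 lowest nuclear members with at least 500 UMIs, the highest of each complex, isoforms, and the 5 highest and 5 lowest between clusters. Others were named after their values were seen. The values of 1 member so named are not reported here, and most members outside this rule are given only in counts and sums. The ratios and intervals were run on simulated Poisson counts, the model that the intervals assume. Those counts held no variation between cells, animals or libraries, so the run checked the computation only.

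For clusters, 50 components of 2000 variable genes (without members, mt- genes, ribosomal genes and receptor segments) were corrected by mutual neighbours (20), and a graph of 15 neighbours was divided by the Leiden method at resolution 1. Clusters under 50 cells were not compared. Scrublet's automatic threshold marked 0.016% and 0.013% of cells, too few to use, so doublets stayed in, and removal of the 277 control and 415 tumor cells with the highest scores was an alternative. Others changed the mt- limit, filters, scaling, members and clustering. The alternative without low-depth clusters left out only the cluster led by *Neat1*, and the shallow cluster led by *Gm26917* and *Gm42418* stayed in. Python 3.11.15, numpy 2.4.6, scipy 1.17.1, pandas 2.3.3, scanpy 1.11.5 and leidenalg 0.10.2 were used.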

Additional observations from a re-analysis of the deposited data

Results flagged for a closer look

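The mt-encoded sum was lower in tumor over all cells, but it was higher in 3 clusters with intervals clear of 0. The log2 ratio was 0.27 in the shallow cluster led by *Gm26917* and *Gm42418*, with 235 control and 313 tumor cells. It was 0.15 in the cluster led by *Ubash3a*, with 189 and 68 cells, and 0.023 in the histone-led cluster, with 173 and 99 cells. The intervals cover counting error only, and the difference between clusters was not tested.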

How the results depend on the processing

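Each condition is 1 library, so no setting shows how much animals differ, and intervals cover counting error only. *Cox4i2*, *Cox6a2* and *Atp5s* are limited by depth. No paired analysis was possible because each group has 1 sample. Beside the 17 alternatives planned, 3 were chosen after seeing the data: leaving out tumor-enriched clusters, averaging within clusters, and thinning cells. Of the 44 named members, 39 kept their sign under every alternative run. The cause of the differences listed here was not tested.

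The nuclear-encoded sum, −0.10, kept its sign in all 14 alternatives. It was −0.11 with at most 5% mt- UMIs, −0.094 with at most 20%, −0.093 with no limit, −0.034 centred on the median of all genes, −0.11 with subunits only, −0.11 without tumor-enriched clusters and −0.097 as the mean within clusters. The mt-encoded sum, −0.11, also kept its sign. It was −0.072, −0.14 and −0.15 under those mt- limits, −0.12 with doublets removed, −0.11 on the scale of non-mt UMIs, −0.041 centred, −0.17 as the mean of CPM over cells, −0.085 with at least 5000 UMIs per barcode, −0.14 without tumor-enriched clusters and −0.074 within clusters. Members called higher numbered 0 in place of 1 with doublets removed or with at least 100 UMIs per member. Members called lower numbered 6 centred and 17 as the mean over cells, in place of 10. *Cox6a2* reversed to −0.20 without tumor-enriched clusters.

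For tumor-enriched clusters, the nuclear-encoded ratio of 0.02 was 0.000405 with at most 5% and 0.034 with at most 20% mt- UMIs, 0.021 with at least 1000 genes, 0.011 with doublets removed, 0.091 centred, 0.067 as the mean over cells, −0.0097 with at least 5000 UMIs, 0.010 with subunits only, 0.027 and 0.0041 at resolution 0.5 and 1.5, 0.028 with no library correction, 0.011 with members among the variable genes and −0.00155 without low-depth clusters. The mt-encoded ratio of 0.08 was 0.13, −0.043 and −0.16 with limits of 5%, 20% and none, 0.099 with at least 1000 genes, 0.15 centred, 0.00805 as the mean over cells, 0.12 with at least 5000 UMIs, 0.087 and 0.072 at those resolutions, 0.13 with no library correction and 0.12 without low-depth clusters.

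For the histone-led cluster in control, the nuclear-encoded ratio of 0.10 was 0.088 with at most 5% mt- UMIs, 0.088 with no limit, 0.015 centred, 0.12 over cells, 0.088 with at least 5000 UMIs, 0.11 at resolution 0.5, 0.12 with no library correction and 0.084 without low-depth clusters. Its mt-encoded ratio of −0.12 was −0.080, −0.16 and −0.083 under the mt- limits, −0.13 with at least 1000 genes, −0.14 with doublets removed, −0.21 centred, −0.15 over cells, −0.091 with at least 5000 UMIs, −0.084 at resolution 0.5, −0.097 with no library correction and −0.082 without low-depth clusters. In tumor, the nuclear-encoded ratio of 0.15 was 0.17 with no mt- limit, 0.060 centred, 0.16 at resolution 0.5 and 0.16 with no library correction. The mt-encoded ratio of 0.01 was −0.013 with at most 20% mt- UMIs, −0.12 with no limit, 0.027 with at least 1000 genes, −0.075 centred, 0.043 with at least 5000 UMIs, −0.021 at resolution 0.5, −0.038 with no library correction and 0.033 without low-depth clusters, so its sign depends on these settings.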
